A study of Mus musculus with 8 samples.

Results

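The genes described here are the histone and protein methylation enzyme families, taken as every gene symbol in the RNA count table that begins with Kmt, Kdm, Setd, Prmt or Prdm followed by a digit. The rule gave 58 of 32285 features, of which 19 were Kdm, 8 Kmt, 15 Prdm, 8 Prmt and 8 Setd symbols. Of these, 56 are annotated as protein coding. The remaining symbols, Kdm6bos and Prdm16os, are opposite-strand transcripts and not enzymes. The name of the set follows the symbols, and not every protein-coding member is a known enzyme. The expression of each gene was followed across cell types of the mouse hippocampus and between 2 maternal diets. The rule reads the symbols alone and no count.

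Lysine methyltransferases of the KMT and SETD families place methyl groups on histone tails, and KDM demethylases take them off again. Protein arginine methyltransferases (PRMT) act on arginines of histones and of many RNA-binding and ribosomal proteins. PRDM proteins combine a PR domain, related to the catalytic SET domain, with zinc fingers, and most of them work as sequence-specific transcription factors, some without a known enzymatic activity of their own. The methyltransferases among them use S-adenosylmethionine as methyl donor, which folate-dependent one-carbon metabolism regenerates, and this makes the families a natural question in a study of maternal folic acid (FA).

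Wild-type C57BL/6J dams, 8 weeks old by the labels (the methods of the study give a range that begins at this age), were fed a conventional FA diet of 2 mg/kg (MF) or an excessive one of 20 mg/kg (HF), starting 2 weeks before mating and kept up through pregnancy and lactation. Hippocampi of their male pups were taken at postnatal day 21 for single-nucleus multiome sequencing, which reads nuclear RNA and open chromatin (ATAC) from the same nuclei. There were 2 libraries per diet, MF replicate 1 and 2 and HF replicate 1 and 2. The 2 libraries of a diet are described as biological replicates, but how many pups or litters went into each is not stated, so tests between diets measure the spread between 4 libraries only.

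After quality filters, 2899 of 3510 and 2249 of 2965 MF nuclei and 3473 of 4241 and 2897 of 3581 HF nuclei were kept, with 20151562 to 29243072 unique molecular identifiers (UMIs) per library and medians of 6117 to 7053 UMIs per nucleus. Libraries shared 111 nucleus barcodes in all. Clusters were named from marker genes as excitatory neuron-like (EXC, 4211 nuclei), inhibitory neuron-like (INH, 770), astrocyte-like (AST, 1291), oligodendrocyte precursor-like (OPC, 574), oligodendrocyte-like (ODC, 630) and microglia-like (MG, 691), and within EXC as CA1-like (563), CA3-like (505), mature (DG-M, 924) and immature (DG-i, 916) dentate granule neuron-like. The other 1303 EXC nuclei were given no subtype name and enter no comparison of subtypes. They included clusters of 519, 270 and 222 nuclei with 2, 2 and 1 of the DG-M markers among their top genes, too few for a name. DG-M is therefore the named cluster only and may leave out other granule neuron-like nuclei. Clusters with a median doublet score over 0.05 (1195 nuclei), most of them with markers of a single class, and clusters with too few markers (1394) were left out of the classes. In each class the summed level of its own markers was higher in its lowest library than in any library of another class, by the least in EXC, at 11651 against 9981 counts per 1000000 (CPM) in INH, and at 36202 against 959 CPM in ODC. OPC also held 4544 to 5893 CPM of the 15 astrocyte markers, against 29281 to 34173 CPM in AST. The 12 inhibitory markers summed to 7861 to 10153 CPM in OPC and 5434 to 7997 CPM in ODC, against 15723 to 16747 CPM in INH. The 2 MF libraries held 178 and 254 AST nuclei and the 2 HF libraries 523 and 336. Depth differed strongly between classes, from 8170841 to 11409024 UMIs per library in EXC down to 178247 to 554380 in MG, so that a gene with no UMI in MG could still stand at up to 5.41 to 16.8 CPM depending on the library, the level of 3 UMIs, which covers counting error only.

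RNA levels below are CPM, the UMIs of a gene scaled to the UMIs of all genes in the nuclei of a type, with a value for each library. CPM is not scaled to gene length, so it is compared between types for a single gene and not between genes. A gene was called class-restricted where its mean over 4 libraries was at least 2 times that of every other class, its lowest library there lay above the highest library of every other class, and it had at least 20 UMIs in that class. Because the classes were themselves found from RNA, although without these genes, such calls are a description and carry no test. The same rule over all genes gives the background. In bulk sums of nuclei, fewer transcribing nuclei of a type and less RNA per nucleus cannot be told apart.

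The summed level of all 58 genes differed between classes by less than 2 times. In plain CPM it was lowest in INH, at 3105 ± 135 CPM (SD, n = 4), and highest in MG, at 4594 ± 495 CPM. Among excitatory subtypes DG-i was highest, with 4280 ± 123 CPM against 3105 ± 206 in CA1, 3057 ± 192 in CA3 and 3453 ± 179.5 in DG-M, and its lowest library, at 4175 CPM, lay above every library of the other subtypes. The sums of classes and subtypes were not recomputed with scaling by trimmed means (TMM). TMM scaling lowered DG-i relative to CA1, from 2.03 times to log2 0.58 for Prmt3. It also lowered MG relative to ODC, from 2.77 times to log2 0.98 for Prdm9. How far the higher sums of DG-i and MG depend on the scaling was not tested. The class-restriction rule named 9 of the 49 genes that had enough UMIs, or 18.4%, where it named 25.9% of 14553 genes overall. Most of the families were therefore expressed broadly, and restricted members did not stand out by count from genes at large, a difference that was not tested. The heat map of relative levels shows restricted and broadly expressed members side by side. By class, 2 members were restricted to EXC (background 2.71% of genes), 2 to AST (4.94%), 2 to ODC (4.29%) and 3 to MG (9.79%), and none to INH (2.21%) or OPC (1.93%).

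**Figure D1:**
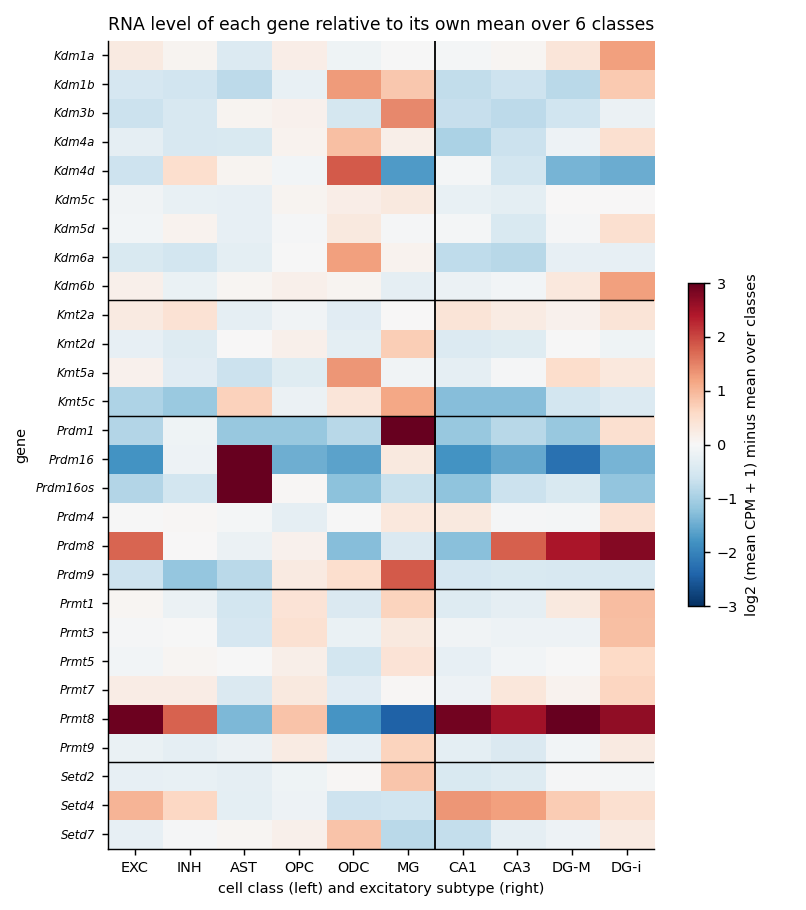
Heat map of the mean RNA level of the restricted genes, the examples chosen by role and the genes with an unadjusted p under 0.05 between diets (rows, ordered by family with lines between families) in 6 classes and 4 excitatory subtypes (columns), as log2 (mean CPM over 4 libraries + 1) minus the gene's mean over the 6 classes, with the colour scale ending at 3 in both directions. Most rows are pale, while Prdm1 stands out in MG, Prdm16 and Prdm16os in AST, and Prmt8 in neurons and Prdm8 in CA3, DG-M and DG-i.

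Among lysine methyltransferases, the large enzymes of active chromatin were found in every class. Kmt2a, the MLL1 methyltransferase of active promoters, had means between 137 ± 15.6 CPM (SD, n = 4) in ODC and 237 ± 22.0 in INH. Kmt2d, which acts at enhancers, ran from 20.4 ± 2.98 CPM in INH to 46.0 ± 10.6 in MG. Setd2, the writer of the methyl mark laid down over transcribed gene bodies, was at 126 to 157 CPM in 5 classes and at 245, 292, 218 and 325 CPM in the 4 libraries of MG, all above the highest value of any other class, but less than 2 times the mean of ODC. Setd7, a monomethyltransferase with many non-histone substrates, was highest in ODC at 119 ± 22.1 CPM and lowest in MG at 36.7 ± 8.42 CPM.

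Among the enzymes that methylate histone H4, Kmt5a, the monomethyltransferase that cells need to pass through division, had 110.3, 64.5, 90.7 and 81.4 CPM in ODC (MF1, MF2, HF1 and HF2), against means of 21.3 CPM in AST to 36.9 CPM in EXC. All ODC libraries lay above all 20 other values, and the mean was 2.35 times that of EXC. Kmt5c, which adds further methyl groups to the residue that Kmt5a methylates in heterochromatin, was instead the single glia-restricted member, by the rule that every AST, OPC, ODC and MG library lies above every EXC and INH library with a mean at least 2 times as high. Its glial libraries ran from 6.99 to 41.7 CPM and its neuronal libraries from 3.15 to 6.96 CPM. The gap between the sets was thus very narrow, and the lowest glial library held only 3 UMIs. Of 54 genes with enough UMIs this was 1.85%, against a background of 1.11%, and it was lost when nuclei with a high doublet score were left out.

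Setd4, a SET-domain protein, was 1 of 2 neuron-restricted members among 54 (3.7%), against 4.55% of all genes, the other being Prmt8. Its levels in EXC were 43.0, 41.5, 39.4 and 37.3 CPM and in INH 41.9, 24.5, 28.7 and 27.4 CPM, against means of 12.4 to 17.4 CPM in the glial classes. The highest glial library, in OPC, reached 23.0 CPM, close to the lowest neuronal value of 24.5 CPM. Both neuronal calls were lost once nuclei with a high doublet score were removed, while Prmt8 kept its restriction to EXC, described below.

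Among arginine methyltransferases, Prmt1, which makes most asymmetric dimethylarginine in cells, had its lowest mean in AST at 14.5 CPM and its highest in MG, where the libraries held 25.7 to 44.9 CPM. Prmt5, the main enzyme of symmetric dimethylarginine, ran from 11.7 CPM in ODC to 23.5 CPM in MG. Both were detected in every class and neither met the rule.

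Prmt8, a relative of Prmt1 that is anchored to the plasma membrane and known from the brain, was restricted to EXC. It had 97.4, 108, 107 and 101 CPM in EXC and 44.5, 35.5, 44.9 and 55.9 CPM in INH, while AST, ODC and MG held 15, 11 and 2 UMIs in all 4 libraries together, with means of 4.34, 2.97 and 1.52 CPM. OPC lay in between, with 26.3, 32.2, 13.5 and 23.3 CPM. The order was EXC, INH, OPC and then the other glia, and neither EXC and INH nor INH and OPC overlapped. The excitatory marker Slc17a7 was also found in glial nuclei, at means of 41.7 CPM in AST, 43.1 in OPC, 28.5 in ODC and 33.4 in MG against 283 in EXC, and the part of RNA from neurons in the glial values of Prmt8, Setd4 and Prdm8 was not tested. Within EXC, DG-M was highest at 144 ± 12.2 CPM, followed by CA1 at 100.2 ± 16.1, DG-i at 85.6 ± 14.7 and CA3 at 77.3 ± 6.01 CPM. The DG-M libraries lay above all others, and DG-i overlapped both CA1 and CA3, which did not overlap each other. At the annotated start of Prmt8, peaks were called in HF replicate 1 alone, so its accessibility could not be compared.

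Among demethylases, the X-linked Kdm6a (UTX), which removes the repressive Polycomb mark from histone H3, was restricted to ODC, where it had 299, 298, 279 and 347 CPM. In the other classes its means ran from 87.3 CPM in INH to 139.5 CPM in MG, and the highest single library was 184 CPM. Its relative Kdm6b (JMJD3), an inducible enzyme acting on the same mark, was flat across the 6 classes, at 19.0 ± 2.96 CPM in MG to 25.9 ± 17.8 CPM in OPC. Kdm4a, which acts on marks of heterochromatin and of gene bodies, had its highest mean in ODC as well, at 45.1 ± 5.66 CPM, below 2 times the MG mean of 27.2 CPM, although it met the rule with scaling by trimmed means (TMM).

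Kdm3b, a demethylase of a heterochromatin mark, was restricted to MG with 238, 191, 199 and 291 CPM. All other classes had means of 53.6 CPM in EXC to 92.8 CPM in OPC and no library above 112 CPM. Its relative Kdm3a, chosen after its values were seen, followed another pattern, with 138, 204, 136 and 213 CPM in AST and a mean of 105 CPM in MG, where 1 library reached 140.3 CPM and overlapped with AST. It met the rule with TMM scaling. Kdm1a (LSD1), the demethylase of the CoREST complex, was present in all classes at 66.0 ± 4.62 CPM in AST to 106 ± 9.59 CPM in EXC.

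The sex-linked pair Kdm5c and Kdm5d, demethylases of a mark of active promoters, were expressed evenly. The X-linked Kdm5c had class means of 49.9 CPM in AST to 72.7 CPM in MG. The Y-linked Kdm5d had class means of 54.8 CPM in AST to 80.0 CPM in ODC, and over all nuclei it stood at 67.1, 57.8, 67.0 and 59.8 CPM in MF1, MF2, HF1 and HF2. All 4 libraries thus held Y-linked RNA at a like level.

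Of the 9 class-restricted symbols, 5 were PRDM symbols, with the opposite-strand Prdm16os counted among them. The set held 15 PRDM symbols, not all with enough UMIs, and the rule named 25.9% of all genes with enough UMIs. Whether PRDM symbols differ from this share was not tested. All members with almost no RNA were PRDM genes. Prdm13 had no UMI in any nucleus and Prdm14 had 7, and the other 56 genes had at least 20. Prdm16, a zinc-finger regulator of radial glia, astrocytes and brown fat, was restricted to AST. It had 254, 348, 318 and 292 CPM in AST. Elsewhere its class means were 2.30 CPM in EXC, 2.81 in ODC, 3.17 in OPC, 9.36 in INH and 13.2 in MG. The MG value came from 1 library, HF1, at 44.9 CPM (14 UMIs), with 2, 0 and 1 UMIs in MF1, MF2 and HF2. The summed level of 15 astrocyte markers in MG was 305, 516, 398 and 359 CPM, against 29281 to 34173 CPM in AST. AST lay above MG by log2 4.52, by 6.82 without HF replicate 1, by 6.72 without nuclei of a high doublet score and by 6.74 at a higher clustering resolution, and the part of astrocyte RNA or doublets in the MG value was not tested. The opposite-strand Prdm16os moved alongside, with 19.8, 34.0, 27.1 and 29.0 CPM in AST and class means of at most 1.94 CPM elsewhere. Whether counting used the strand is not given in the sources used here, so reads of the pair may not be separable.

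Prdm8, a repressor that shapes connectivity of projection neurons, was restricted to EXC with 39.9, 34.4, 34.3 and 30.3 CPM, or 3.25 times the OPC mean. The OPC value was uneven, at 21.2 CPM in HF1 (11 UMIs) and 5.26 to 9.20 CPM in the other libraries. Within EXC it stood at 89.9, 67.3, 61.8 and 65.2 CPM in DG-i and at 66.0, 63.4, 51.0 and 47.3 CPM in DG-M. In CA3 it had 38.5, 29.0, 41.3 and 35.6 CPM, and in CA1 only 1.40, 4.03, 4.71 and 3.80 CPM. DG-i and DG-M overlapped. CA3 lay below both and CA1 below all others in every library.

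Prdm1 (Blimp-1), a repressor known from plasma cells and myeloid cells, was found in MG at 48.7, 11.2, 38.5 and 47.1 CPM. These values rest on 27, 2, 12 and 11 UMIs. In AST and OPC it had none, and in INH and EXC at most 3 UMIs per library. The depth of MF2, with 178247 UMIs in MG, leaves its value the least certain. Prdm9, known for marking recombination sites in meiosis, was also higher in MG, at 19.8, 22.4, 22.4 and 17.1 CPM against 8.87 CPM or less in every other library. These were only 26 UMIs in all, with 11 in MF1 and 7 in HF1. Without either of these libraries the UMIs fell under the minimum of 20 and the call was lost, while MG stayed above ODC by log2 1.58 without MF1 and 1.43 without HF1, against 1.47 with all. With TMM scaling the difference was log2 0.98, which is below 2-fold.

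**Figure D2:**
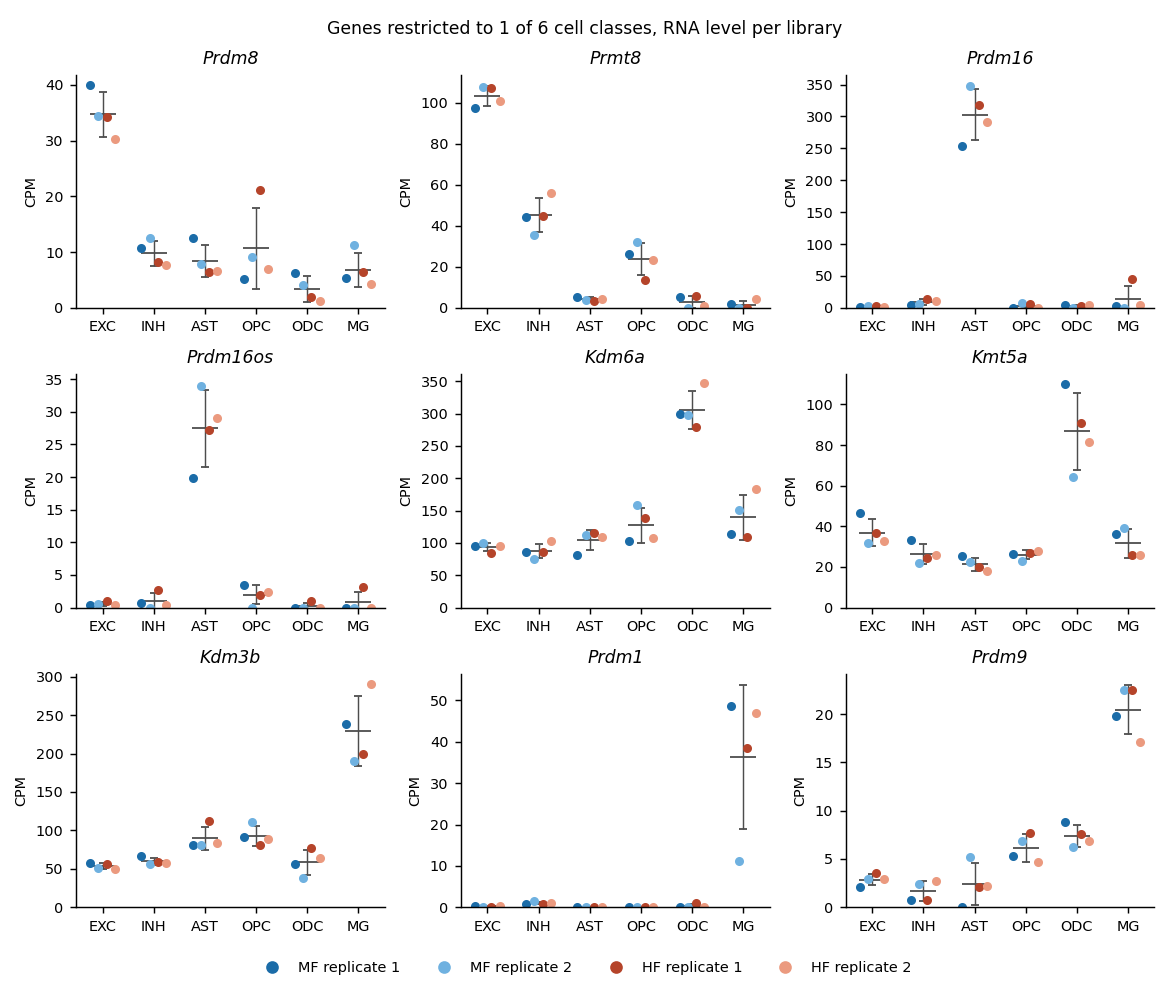
RNA level in CPM (vertical axes, starting at 0) of the 9 class-restricted genes in 6 cell classes, 1 point per library with the mean (dash) and SD (bars) over 4 libraries. The restricted class lies above the rest in every library, for instance at 30.3 CPM or more against 21.2 CPM or less for Prdm8 and at 17.1 CPM or more against 8.87 CPM or less for Prdm9.

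The same rule among the 4 excitatory subtypes named 2 of 50 members, or 4.0%, against a background of 14.3% of 13243 genes. Both were in DG-i, the immature granule neuron-like nuclei, where 8.38% of all genes were restricted, and none in CA1 (1.73%), CA3 (2.14%) or DG-M (2.03%). DG-i joined a cluster of 832 nuclei with another of 84, which had Eomes and Sox2ot among its top genes. The part of the smaller cluster in the DG-i values was not tested. Kdm1b (LSD2), a relative of Kdm1a that binds to transcribed gene bodies, had 19.4, 16.4, 29.3 and 21.7 CPM in DG-i and 3.80 to 9.43 CPM in all libraries of the other 3 subtypes. Prmt3, which methylates a protein of the small ribosomal subunit, had 56.2, 87.0, 68.3 and 97.0 CPM in DG-i and 30.6 to 44.3 CPM elsewhere. Its mean was 2.03 times that of CA1, so that it passed the rule narrowly. It did not pass without HF replicate 2, with TMM scaling (log2 0.58 over CA1), at a higher clustering resolution (0.93) or with the members among the genes used for clustering.

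Further members were highest in DG-i without reaching the 2-fold limit. Kdm1a was at 201, 192, 265 and 177 CPM in DG-i against 99.7 to 123 CPM in DG-M, and Kdm6b at 55.2, 47.6, 60.7 and 56.8 CPM against 24.1 to 39.3 CPM in DG-M, the next subtype. In both, every DG-i library lay above every other library, and at the higher clustering resolution both met the rule, which then named Kdm1a, Kdm1b and Kdm6b. Prmt2, chosen after its values were seen, also differed between the stages of granule neurons, with 70.5, 54.1, 73.7 and 53.5 CPM in DG-i and 14.1, 6.96, 11.8 and 5.76 CPM in DG-M. Its means were 38.0 CPM in CA3 and 36.7 CPM in CA1, and every DG-M library lay below every CA1 library. Prmt2 was thus low in DG-M as well as highest in DG-i. Setd4 had its lowest mean in DG-i, from 50.1 ± 3.27 CPM in CA1 and 47.1 ± 6.95 CPM in CA3 to 27.5 ± 1.38 CPM in DG-i, although DG-i overlapped DG-M (29.4 to 39.4 CPM).

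**Figure D3:**
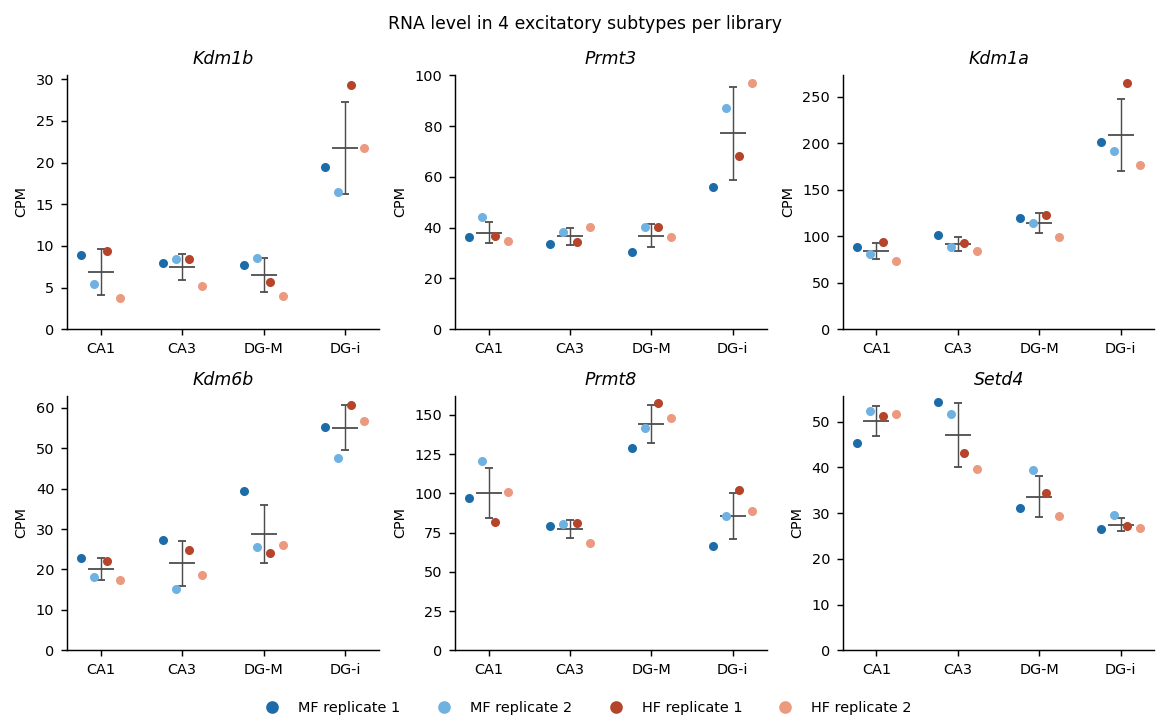
RNA level in CPM (vertical axes, starting at 0) of 6 genes in CA1-like, CA3-like, mature (DG-M) and immature (DG-i) granule-like nuclei, 1 point per library with mean and SD over 4 libraries. Kdm1b, Prmt3, Kdm1a and Kdm6b have all DG-i libraries above the others, Prmt8 is highest in DG-M, and Setd4 is lowest in DG-i, overlapping DG-M.

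Open chromatin at gene starts was a readout that took no part in finding the classes, and it was therefore tested. For each gene, ATAC counts in peaks within 1 kb of the annotated gene start were summed per library and class, and each class was compared with the mean of the others by edgeR's quasi-likelihood test with the library as a block. A gene was called at a false discovery rate (FDR, Benjamini-Hochberg) under 0.05 and at least 2-fold. Of 52 members tested, 6 were called higher in at least 1 class, or 11.5%, against 42.1% of 17950 genes, and 7 were called lower, or 13.5%, against 42.7%. Among subtypes 3 of 53 were higher (5.66%, background 19.1%), all in DG-i (Prdm8, Prdm1 and Prdm16), and 1 was lower, Prdm8 in CA1 (1.89%, background 20.5%). The calls of Prdm1 (log2 1.05) and Prdm16 (log2 1.12) in DG-i lay close to the limit. That of Prdm1 was lost without MF replicate 1, where it fell just under the 2-fold limit, and without HF replicate 2 (0.91), that of Prdm16 without MF replicate 2 (1.05, FDR = 0.112) and without HF replicate 1 (0.84, FDR = 0.245), and both with windows at every transcript start (0.87 and 0.22), an alternative described below. Prdm16 had 19, 19, 29 and 0 counts at its annotated start in DG-i.

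Of the 9 class-restricted genes, 7 had a start that could be tested, and 3 of these were called more accessible in the class of their RNA, namely Prdm8 in EXC, Prdm16 in AST and Prdm1 in MG. Over all genes this held for 56.5% of 3146 class-restricted genes with a tested start, and for 78.5% of those restricted to EXC, 68.7% in AST, 47.0% in ODC and 40.8% in MG. Without regard to RNA, starts were called higher in EXC for 20.9% of all genes, in AST for 11.7%, in ODC for 7.6% and in MG for 7.81%. The windows of Kdm6a, Kmt5a, Kdm3b and Prdm9 were below the 2-fold limit in the restricted class, at log2 0.35 ± 0.10 (SE) for Kdm6a and -0.30 ± 0.12 for Kmt5a in ODC and 0.28 ± 0.10 for Kdm3b and 0.33 ± 0.08 for Prdm9 in MG. Prmt8 and Prdm16os could not be compared in this way. Of the 2 subtype-restricted members, Kdm1b and Prmt3, 0 had a start called higher in DG-i. Over all genes this held for 22.2% of 973 genes restricted to DG-i with a tested start.

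At the start of Prdm8, EXC had 31.2, 27.4, 30.9 and 27.5 ATAC counts per 1000000 counts in peaks (ATAC CPM), INH 9.13 to 15.9, OPC 12.4 to 15.7 and MG 0 to 2.12. The difference of EXC from the other classes was log2 2.77 ± 0.15 (FDR = 1.74e-30), higher in 4 of 4 libraries. Among subtypes, CA1 was lower by log2 -1.89 ± 0.15 (FDR = 4.85e-21) and DG-i higher by 1.32 ± 0.11 (FDR = 2.96e-20). CA1 thus had both the least RNA and the least open start of Prdm8. The start given by RefSeq lies 13671 bases further into the gene, and a peak covered it in every library. Its promoter, 250 bases before to 50 after the start, is on the plus strand of GRCm38 at chr5:98180619-98180918. It is shown because the peak over it was open in EXC at 15.4 to 18.3 ATAC CPM, in INH at 2.33 to 4.01 and in AST at 0.446 to 0.967, and in CA1 at 4.44 to 6.89 against 19.0 to 28.0 in DG-i.

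Prdm8: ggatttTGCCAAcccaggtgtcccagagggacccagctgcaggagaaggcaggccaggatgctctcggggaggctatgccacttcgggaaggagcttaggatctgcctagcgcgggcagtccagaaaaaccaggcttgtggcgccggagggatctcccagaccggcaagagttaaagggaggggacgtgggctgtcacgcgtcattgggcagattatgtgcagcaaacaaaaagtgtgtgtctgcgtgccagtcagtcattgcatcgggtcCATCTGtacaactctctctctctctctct

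Capitals mark 6-letter words searched on both strands. CATCTG is the reverse complement of CAGATG, an E-box word of the kind that neuronal basic helix-loop-helix factors bind, and TGCCAA is the reverse complement of TTGGCA, a word bound by nuclear factor I. CAGATG or its complement was present in 17.2% of 32851 RefSeq promoters and TTGGCA in 14.1%, so neither word is rare. No further match of these words, or of GAGGAAG below, occurred in this window.

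Prdm1 had 57.8, 49.9, 53.6 and 61.4 ATAC CPM at its annotated start in MG and means of 7.10 in EXC to 12.3 in OPC. MG was higher than the other classes by log2 2.25 ± 0.15 (FDR = 2e-24), in 4 of 4 libraries. MF2, with 2 RNA UMIs, showed 70 ATAC counts here, so its accessibility was close to that of the other libraries. A RefSeq promoter 69753 bases into the gene, on the minus strand at chr10:44458699-44458998, lay under a second peak, with 21.9 to 34.5 ATAC CPM in MG and 1.83 to 8.76 in the other classes. It is shown for this second MG peak.

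Prdm1: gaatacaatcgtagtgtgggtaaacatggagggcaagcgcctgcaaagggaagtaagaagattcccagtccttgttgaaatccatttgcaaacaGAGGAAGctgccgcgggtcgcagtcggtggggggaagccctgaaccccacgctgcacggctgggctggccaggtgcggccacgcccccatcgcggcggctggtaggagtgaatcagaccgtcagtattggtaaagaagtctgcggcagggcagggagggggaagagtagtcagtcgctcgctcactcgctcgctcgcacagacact

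The capitals mark GAGGAAG, a word of ETS factors such as PU.1 of myeloid cells, which occurred in 13.6% of promoters in either direction. Neither CAGATG nor TTGGCA was found in this window.

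Prdm16 was higher in AST by log2 3.39 ± 0.43 (FDR = 1.01e-10), but this rests on uneven peaks. In the same test OPC was also called higher and MG lower. Over the main test and its alternatives, OPC lay at log2 0.86 to 2.26. At the gene start AST had 8.70, 54.9, 6.80 and 0 ATAC CPM, and in HF2 no peak was called there. With windows at every annotated transcript start of the gene, an alternative chosen after seeing the data, all 4 libraries had peaks, with 64.8, 113, 63.1 and 51.9 ATAC CPM in AST and means of 45.5 in ODC, 42.7 in OPC, 18.5 in INH, 9.32 in EXC and 8.78 in MG. The difference was then log2 1.85 ± 0.13 (FDR = 6.35e-21). ODC was higher as well, by log2 1.04 ± 0.15 (FDR = 3.92e-08), although it had little Prdm16 RNA. The promoter at the annotated start, on the minus strand at chr4:154636824-154637123, is shown because a peak overlapped it in MF2 alone, with 54.9 ATAC CPM in AST and 0 to 8.43 in the other classes. That peak, at chr4:154635960-154636852, met only the end of the window that lies inside the gene. Most of the peak lies outside the printed sequence, so its counts do not show the sequence itself to be open.

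Prdm16: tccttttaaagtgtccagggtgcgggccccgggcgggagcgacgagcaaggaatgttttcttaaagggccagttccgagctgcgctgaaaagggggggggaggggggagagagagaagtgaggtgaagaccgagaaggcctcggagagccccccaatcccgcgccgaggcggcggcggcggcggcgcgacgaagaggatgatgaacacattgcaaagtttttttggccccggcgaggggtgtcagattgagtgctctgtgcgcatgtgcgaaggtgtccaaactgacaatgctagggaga

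None of the 3 words above was present in it, and 61.0% of its bases were G or C, with 24 CpG dinucleotides.

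RNA and accessibility did not always go together. Kdm6b had flat RNA over the classes, yet its start was more accessible in EXC, by log2 2.67 ± 0.19 (FDR = 1.43e-22), and in INH, by 1.63 ± 0.24 (FDR = 6.69e-09), and less so in AST (-2.30 ± 0.40) and MG (-2.96 ± 0.48). The counts behind AST and MG were small, at 1 to 10 per library. These calls held for the window of 1 kb only. Within 2 kb, where further peaks enter, EXC stood at log2 -0.05, INH at -0.21 and AST at 0.17.

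Other calls lay below the level of the genes above. Prdm6, chosen after its values were seen, was called higher in INH and OPC and lower in ODC, on 2 to 35 counts per library. Setd6, likewise chosen after its values were seen, and Setd7 were called lower in MG, by log2 -1.05 ± 0.18 and -1.09 ± 0.11. Over the main test and its alternatives, Setd6 lay at log2 -1.21 to -0.86 and Setd7 at -1.15 to -1.02. Prdm6 lay at log2 0.93 to 1.35 in INH, 0.51 to 1.40 in OPC and -2.24 to -1.05 in ODC. Setd6, and Prdm6 in INH and OPC, thus fell under the 2-fold limit in some settings. MG was the class with the largest share of all starts called lower, at 28.6%.

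**Figure D4:**
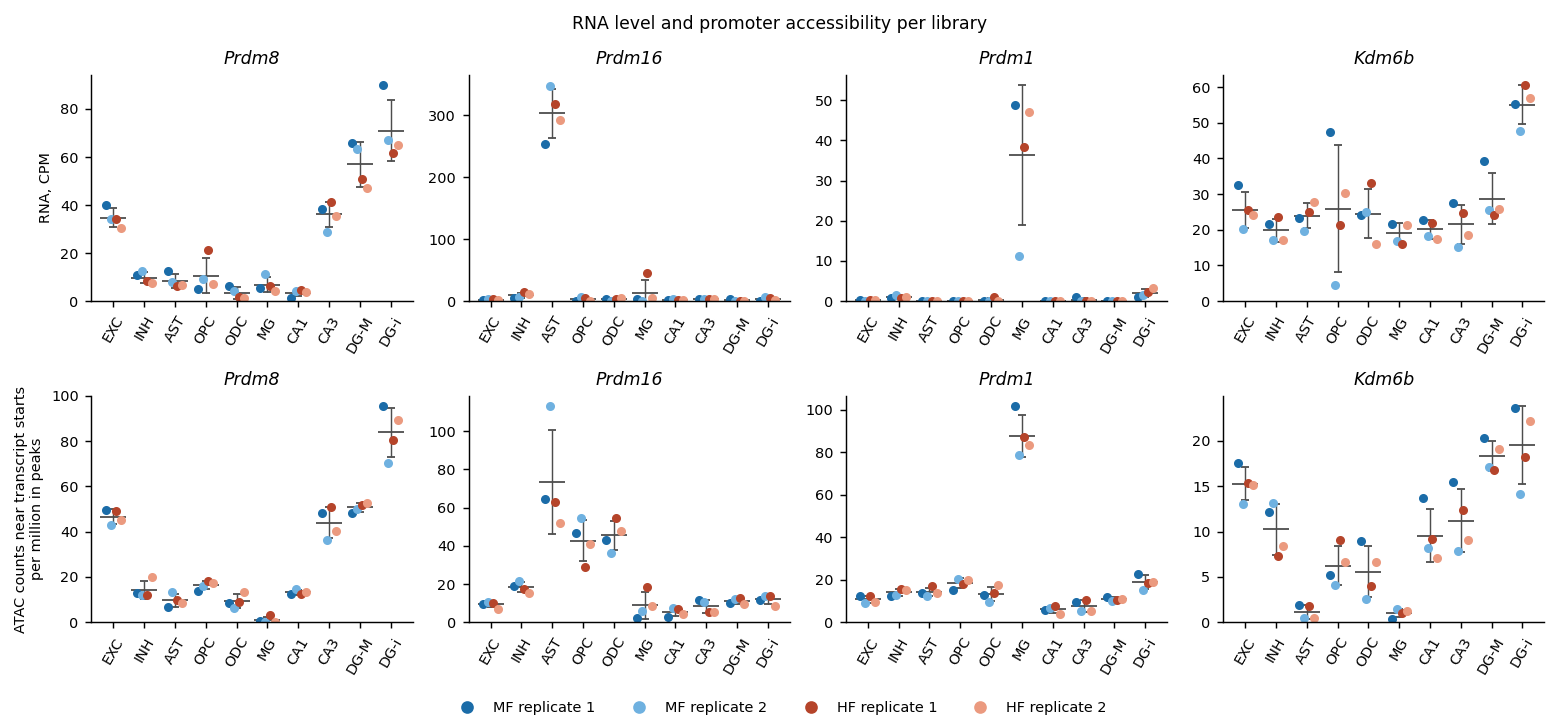
RNA level in CPM (top row) and ATAC counts in peaks near any annotated transcript start, as ATAC CPM (bottom row) for 4 genes in 6 classes and 4 excitatory subtypes, 1 point per library with mean and SD over 4 libraries. Prdm8 and Prdm1 peak in the same types in both rows, Prdm16 is highest in AST in both, and Kdm6b differs between classes in accessibility alone. The Kdm6b difference in EXC, INH and AST was not kept with a 2 kb window.

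Between the diets, no member passed the test in any of 11 sets of nuclei, which were all nuclei, the 6 classes and the 4 subtypes. Library sums were compared with edgeR's quasi-likelihood test, called at FDR under 0.05 and at least 1.2-fold. There were 488 tests of members, and 7 of them had an unadjusted p under 0.05, or 1.43%, against 1.97% of 118806 tests over all genes. Genes called made up 0.0537% of those tested in OPC (4 genes), 0.00945% in CA1 (1 gene) and 0.0% in each of the other 9 sets. DESeq2 on the same sums called no member either, with 2 of 488 tests at an unadjusted p under 0.05. The median log2 difference of members between HF and MF lay between -0.039 in CA1 and 0.11 in MG, and that of all genes between -0.0032 in CA3 and 0.015 in DG-i.

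The 7 differences with the smallest p lay in 5 sets of nuclei, and their FDR by edgeR ran from 0.9993 to 0.9999. They were 2 of 48 members tested in INH (2.11% of all genes), 1 of 43 in AST (2.65%), 2 of 42 in ODC (2.28%), 1 of 48 in CA3 (2.06%) and 1 of 44 in DG-i (1.74%). There was none over all nuclei (1.08%) or in EXC (1.16%), OPC (2.58%), MG (3.05%), CA1 (2.43%) or DG-M (2.35%). In INH, Prdm16 had 5.19 and 6.71 CPM in MF and 14.2 and 11.4 CPM in HF (log2 1.15 ± 0.37 SE, unadjusted p = 0.00933, FDR = 0.9997 by edgeR), on 14 to 36 UMIs per library. The 15 astrocyte markers summed to 389 and 744 CPM in MF and 786 and 707 CPM in HF in the same nuclei, and their part in this difference was not tested. Without nuclei of a high doublet score, Prdm16 had too few counts in INH to be tested, and at a higher clustering resolution the difference was log2 1.75. Prmt7, a monomethylating arginine methyltransferase, had 40.1 and 41.7 CPM in MF and 29.9 and 28.1 CPM in HF of INH (log2 -0.45 ± 0.20, and -0.29 without nuclei of a high doublet score). In AST, Prmt5 had 36.0 and 15.7 CPM in MF and 10.7 and 6.69 CPM in HF (log2 -1.42 ± 0.49), so that MF1 stood above the rest, and the difference without it was log2 -0.84.

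In ODC, Kmt5c had 30.4 and 14.6 CPM in MF and 11.3 and 8.03 CPM in HF (log2 -1.23 ± 0.50), and Prmt9, which methylates a splicing factor, had 20.3 and 22.9 CPM in MF and 36.8 and 39.0 CPM in HF (log2 0.86 ± 0.35). Without MF1 the difference of Kmt5c was log2 -0.60, and at a higher clustering resolution it was -0.80 for Kmt5c and 0.35 for Prmt9. In CA3, Kdm4d, a demethylase of heterochromatin marks, had 1.86 and 2.63 CPM in MF and 7.30 and 4.35 CPM in HF (log2 1.44 ± 0.57) on 4 to 20 UMIs. It had too few counts to be tested without HF replicate 1, without nuclei of a high doublet score and under both other clusterings. In DG-i, Prdm4 had 13.3 and 8.20 CPM in MF and 26.0 and 16.7 CPM in HF (log2 1.01 ± 0.47). Depending on the library, 3 UMIs stood at 3.06 to 5.02 CPM in DG-i, 2.83 to 6.24 CPM in ODC and 2.14 to 5.40 CPM in AST. The values of Prdm4, Kmt5c and Prmt5 thus also rest on few UMIs. In each of the 7 differences the libraries of the diets did not overlap, which with 2 libraries a diet is common. It held for 10 of 55 members over all nuclei, against 18.3% of all genes, for 10 of 52 in EXC (21.4%), 16 of 48 in INH (25.6%), 10 of 43 in AST (27.5%), 14 of 37 in OPC (27.2%), 18 of 42 in ODC (26.9%), 7 of 28 in MG (26.8%), 5 of 44 in CA1 (27.4%), 11 of 48 in CA3 (26.6%), 11 of 47 in DG-M (27.0%) and 13 of 44 in DG-i (25.5%). Over all nuclei, the libraries numbered 1 did not overlap those numbered 2 for 27 of 55 members and 55.0% of all genes.

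No restricted gene was called between the diets in the class or subtype of its restriction, and Prdm9 had too few counts in MG to be tested. Prdm16 in AST had a mean of 301 CPM in MF and 305 CPM in HF, and Kdm6a in ODC 298 and 313 CPM. Over all nuclei Prdm16 had 11.7 and 23.3 CPM in MF and 27.7 and 18.6 CPM in HF (log2 0.44 ± 0.31). Its difference was log2 -0.034 without MF1 and 1.09 without MF2, and in the latter setting it was called. The single MF library then left was the one with the fewest AST nuclei, and the part of AST nuclei in the call was not tested. The spread behind this call comes from the 2 HF libraries alone, and MF1 is assumed to vary as they do. Prdm6, chosen after its values were seen, was called in the same setting and under the same assumption (log2 3.01). With all libraries its difference was log2 1.12 ± 0.64, on 4 and 21 UMIs in MF and 32 and 35 in HF, and it was 0.20 without MF1 and 3.45 without nuclei of a high doublet score. Of these 92 UMIs, 64 lay in vascular-like nuclei, of which there were 22 and 47 in the MF libraries and 73 and 38 in the HF libraries. The part of these nuclei in the difference was not tested.

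**Figure D5:**
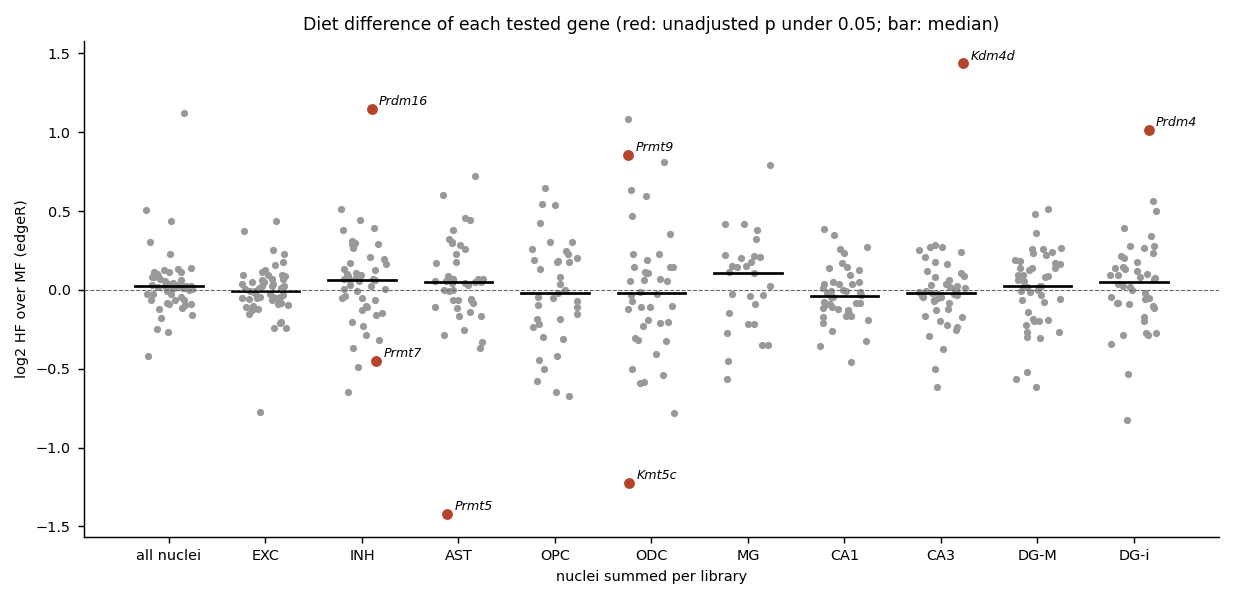
Difference between diets, log2 HF over MF from edgeR (vertical axis), of each tested member in all nuclei, 6 classes and 4 subtypes (horizontal axis), with the median as a bar and members at an unadjusted p under 0.05 in red with their names. The points scatter around 0 in every set, the medians lie between -0.039 and 0.11, and the 7 named points, on both sides of 0, are not called after adjustment.

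Whether the diet difference changed with the maturation of granule neurons was tested as the interaction of diet and stage in DG-i and DG-M. No member of 44 was called, and no gene of 10982 (0.0%). Kdm5b, a demethylase of a mark of active promoters, was the single member with an unadjusted p under 0.05, against 4.23% of genes, with a log2 difference of -0.61 ± 0.23 (SE, FDR = 1 by edgeR's quasi-likelihood test). It had 176 and 156 CPM in MF and 134 and 145 CPM in HF of DG-i, and 78.6 and 73.5 CPM in MF and 107 and 77.2 CPM in HF of DG-M.

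Related genes outside the symbol rule were followed as 3 lists, 25 other methyltransferases, 9 other demethylases and 23 partners of their complexes. No member of any list was called between the diets by edgeR, and at most 1 member of a list had an unadjusted p under 0.05 in any set. Of 20, 8 and 21 members with enough UMIs, the class rule named 1, 1 and 0, against 25.9% of all genes. They were Eed, a subunit of the Polycomb methyltransferase (89.5 CPM in MG, 2.06 times the next class), and Jmjd1c, a relative of Kdm3b (961 CPM in MG, 2.00 times the next). Among subtypes the rule named 3 of 21, 0 of 9 and 2 of 22, against 14.3% of all genes, namely Ezh2, the Polycomb methyltransferase itself, at 6.00 times the next subtype, Smyd3 (2.43 times), Smyd2 (2.03 times) and the CoREST subunit Rcor2 (3.43 times), all in DG-i, and the deacetylase Hdac1 in DG-M (2.05 times). The 4 genes in DG-i joined Kdm1b and Prmt3 there, in the subtype where the background share was also the highest of the 4, at 8.38%.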

How the data were processed

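Nuclei of mouse hippocampus at postnatal day 21 from 2 MF and 2 HF libraries were analysed. The authors deposited raw UMI counts per gene and nucleus and raw ATAC counts per peak and nucleus as filtered matrices, made with Cell Ranger ARC 2.0.1 according to the submitters' processing notes, with peaks called separately in each library. The annotation used to place gene starts was GENCODE M21, and 57 of 58 members matched 1 gene in it. Nuclei with 500 to 7000 genes, under 2% mitochondrial counts and 1000 to 70000 ATAC counts were kept. Doublets were scored, and clusters with a median score over 0.05 were left out of the classes. Single nuclei were not removed, since the automatic caller marked 0 to 22.0% of nuclei depending on the library. Nuclei with a score over 0.05 were left out as an alternative.

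Nuclei were clustered with scanpy 1.11.5 (3000 variable genes without the members, 20 components, Leiden resolution 0.8), which gave 27 clusters named from fixed markers. Counts were then summed per library and type, in Python 3.11.15. Diets were compared with edgeR 4.0.16 (quasi-likelihood test, TMM, Benjamini-Hochberg over all genes tested) in R 4.3.3, with DESeq2 1.42.0 as an alternative, and the tests were checked on simulated data. Promoter sequences came from RefSeq (GRCm38.p6).

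Named genes were the restricted members, those called or with the smallest unadjusted p under 0.05 between diets (up to 3 a comparison), those with a promoter called in the class of their RNA, 16 examples chosen by role, those under 20 UMIs, and list members called or restricted. The values of 1 member are not reported here. The members and lists were chosen with earlier results of these data known. The alternatives were another normalization, no filter on low counts, other fold minimums and windows, other clusterings, a replicate block and leaving out each library. The study calls the libraries of a diet biological replicates, without saying how many pups or litters each holds. RNA and ATAC samples of a diet with the same replicate number hold the same nuclei. Between the diets, samples with the same number are not stated to share a litter or batch, so p-values measure only the spread between libraries.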

Additional observations from a re-analysis of the deposited data

Results flagged for a closer look

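Levels of 2 members outside the 6 classes lay above those in the classes, in nuclei that entered no comparison above except the sums over all nuclei. In nuclei with markers of committed oligodendrocyte precursors (COP, 356 nuclei), Kdm6b had a mean of 61.9 CPM and 38.5 to 86.1 CPM per library, on 122 UMIs. The highest class mean was 25.9 CPM in OPC, and the highest single library of the classes, at 47.3 CPM, overlapped with COP. In vascular-like nuclei (VAS, 180 nuclei), Prdm6, a PRDM repressor known from vascular smooth muscle, had a mean of 71.9 CPM and 0 to 119 CPM per library, on 64 UMIs. The highest class mean was 1.40 CPM, in MG. The library without a UMI was MF1, where VAS had 22 nuclei and 88153 UMIs, so that 3 UMIs would stand at 34.0 CPM.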

How the results depend on the processing

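Between the diets, no member was called in any of the 11 sets under DESeq2, other size factors, no filter on low counts, no fold minimum, or doublets left out, nor in the 10 classes and subtypes under other clusterings. With the replicate block 0 members were called in each set, and 16 of 488 member tests had an unadjusted p under 0.05 against 7 without it (all genes, 5246 against 2343). Deviations of libraries with the same number correlated at 0.019 in CA1 to 0.32 over all nuclei, but nothing states that a number marks a shared animal or batch. Over all nuclei 0 to 2 members were called when 1 library was left out. The 2 were Prdm16 (log2 1.09) and Prdm6 (3.01), without MF replicate 2. Prdm16 over all nuclei reversed to -0.034 without MF replicate 1. The diet by stage interaction gave 0 members throughout. The class rule named the same 9 members without nuclei of high doublet scores and under both other clusterings. At 3-fold it named 4 of them. It named 11 with TMM scaling, where Kdm3a, Kdm4a and Kdm4d were added and Prdm9 was lost. With 1 library left out it named 9 to 11, adding Kdm2b and Setd1b and losing Prdm9 without MF replicate 1, adding Kdm4d and losing Prdm9 without HF replicate 1, and adding Kdm2b and Kdm4d without HF replicate 2. Without a UMI minimum Prdm14 was added. Kdm2b, Kdm3a and Setd1b are named here after their values were seen. Subtype-restricted members numbered 1 to 3 with 1 library left out, 1 with the members among the variable genes, 1 with TMM scaling and 0 at 3-fold. They were Kdm1a, Kdm1b and Kdm6b at the higher clustering resolution, so that only Kdm1b was shared with the 2 above. Neuron-restricted members numbered 0 without high doublet scores and 1 at 3-fold. Glia-restricted members numbered 1 to 2 with 1 library left out, 0 without high doublet scores, 0 with the members among the variable genes and 2 with TMM scaling. Without a fold minimum the promoter calls were 43 higher and 42 lower of 52 members by class, against 15676 and 14888 of 17950 genes, and 26 higher and 17 lower of 53 by subtype, against 8959 and 8545 of 17389. Higher calls by subtype numbered 2 without any 1 of the 4 libraries and 2 with every transcript start. Lower calls by subtype numbered 2 with the 2 kb window and 2 with every transcript start, the last chosen after seeing the data. With the 2 kb window Kdm6b reversed in AST (0.17), EXC (-0.045) and INH (-0.21). The cause of these changes was not tested. Of the 6 classes, depth limits the values of MG most, where 178247 UMIs in MF2 put the level of 3 UMIs at 16.8 CPM.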

Other observations

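Libraries numbered 1 and 2 stood apart for many genes in both diets. In EXC, both libraries numbered 1 lay above both numbered 2 for 20 of 52 members, against 41.9% of 15305 genes, and in DG-i for 11 of 44, against 30.8% of 9285 genes. Prmt1, chosen here after its values were seen, is an example. In EXC it had 30.3 and 26.6 CPM in MF1 and HF1 and 18.4 and 13.8 CPM in MF2 and HF2, and in DG-i it had 65.4 and 52.0 CPM in MF1 and HF1 and 27.9 and 21.7 CPM in MF2 and HF2. No test was made of this split, and the labels do not say what the number marks.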
